A study of Mus musculus with 2 samples.

Results

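The genes of fatty acid synthesis and desaturation described here are Acly, Acaca, Fasn, Me1, Elovl6, Scd1, Scd2 and their regulator Srebf1, 8 of the 27998 genes in the gene table, chosen by symbol and followed by islet cell type and by diet. Cells make fatty acids from citrate that leaves the mitochondria. ATP citrate lyase (Acly) splits it into cytosolic acetyl-CoA, acetyl-CoA carboxylase (Acaca) turns that into malonyl-CoA, and fatty acid synthase (Fasn) builds palmitate with NADPH, part of which the cytosolic malic enzyme (Me1) supplies. Elovl6 then lengthens palmitate, the stearoyl-CoA desaturases Scd1 and Scd2 place the first double bond, and SREBP-1, the factor encoded by Srebf1, drives transcription of these enzymes in liver and fat. In beta cells, the insulin-secreting cells of the islet, glucose carbon reaches citrate and malonyl-CoA in the same way, and beta cells are not a tissue that stores much fat.

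The islets came from wild-type C57BL/6J mice, an inbred strain prone to obesity on fat-rich food, fed from weaning for 6 weeks. The high-fat diet (HFD) library pooled 5 mice on a 60% fat diet, and the chow library pooled 4 mice on regular chow. Both sets of islets spent a night in culture before trypsin dispersal, and neither the sex nor the exact age of the mice is stated in the labels. Libraries were made with 10x Genomics 3′ v2 chemistry, in which unique molecular identifiers (UMIs) count RNA molecules at their 3′ ends, so a count carries no term for transcript length. Each diet has 1 library and no barcode is tied to a mouse, so diet and library cannot be told apart, no test of diet was possible, and each interval below covers counting error only.

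Cells were assigned by hormone share and endothelial transcripts in a fixed order. A barcode was a beta cell with at least 20% of its UMIs from Ins1 and Ins2, otherwise an alpha cell with at least 5% from Gcg, a delta cell with at least 1% from Sst, a pancreatic polypeptide (PP) cell with at least 15% from Ppy, or an endothelial cell with at least 10 UMIs of Plvap, Kdr and Flt1. These rules gave 3100 HFD and 4574 chow beta cells, 402 HFD and 779 chow alpha cells, 388 HFD and 468 chow delta cells, 160 HFD and 203 chow PP cells, and 126 HFD and 170 chow endothelial cells. A further 218 HFD and 193 chow barcodes met no rule. The summed level of each type's marker list was highest in that type among the 5 types. These lists include the genes that assigned the cells, so this order was largely set by the rules and is no separate check. The 7 endothelial markers, with Plvap, Kdr and Flt1 of the rule among them, summed to 13187 counts per 1000000 UMIs of the type (CPM) in HFD and 11465 CPM in chow endothelial cells, against at most 64.3 CPM in any endocrine type. All 8 beta markers were present in beta cells of both libraries, while the delta marker Lepr was at 0 in delta cells of both. Adipocyte markers, from a cell type known for fatty acid synthesis, summed to between 0 and 4 UMIs in each type of each library.

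The HFD library was somewhat deeper per cell. It had 4539 barcodes, 68544729 UMIs and a median of 13911 UMIs per barcode, and the chow library had 6509 barcodes, 89292222 UMIs and a median of 12414. The libraries shared 45 barcode sequences. Within beta cells the median was 16947 UMIs in HFD and 14810 UMIs in chow.

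Promoter sequences, from 250 bases before to 50 bases after the annotated start (RefSeq, GRCm38.p6), are shown for Acly, the most abundant of the 8 transcripts, and for Fasn and Elovl6, which act in succession and had ratios of opposite sign in HFD beta cells. Capitals mark GGGCGG (the GC box) or CCAAT (the NF-Y box) on either strand, as CCGCCC or ATTGG where the match lies on the other strand. The Acly promoter lies at chr11:100527951-100528250 on the minus strand, the Fasn promoter at chr11:120824498-120824797 on the minus strand and the Elovl6 promoter at chr3:129532136-129532435 on the plus strand.
Acly: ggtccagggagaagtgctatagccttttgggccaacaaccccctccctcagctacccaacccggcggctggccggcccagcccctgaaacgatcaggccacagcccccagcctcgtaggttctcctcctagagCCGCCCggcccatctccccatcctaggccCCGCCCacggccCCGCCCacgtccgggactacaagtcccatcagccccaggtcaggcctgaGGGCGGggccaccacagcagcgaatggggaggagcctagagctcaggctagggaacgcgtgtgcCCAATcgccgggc
Fasn: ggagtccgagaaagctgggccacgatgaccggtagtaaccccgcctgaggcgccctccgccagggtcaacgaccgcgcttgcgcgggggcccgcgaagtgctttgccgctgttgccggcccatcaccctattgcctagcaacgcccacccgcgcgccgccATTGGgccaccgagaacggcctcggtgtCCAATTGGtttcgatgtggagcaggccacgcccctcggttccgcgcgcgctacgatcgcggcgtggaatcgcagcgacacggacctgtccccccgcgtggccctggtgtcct
Elovl6: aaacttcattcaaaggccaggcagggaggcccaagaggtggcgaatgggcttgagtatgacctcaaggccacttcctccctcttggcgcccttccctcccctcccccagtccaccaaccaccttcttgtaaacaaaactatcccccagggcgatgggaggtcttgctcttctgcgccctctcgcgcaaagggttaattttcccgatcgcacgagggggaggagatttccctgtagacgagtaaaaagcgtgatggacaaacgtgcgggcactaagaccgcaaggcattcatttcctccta
The Acly window holds 4 GC boxes and 1 CCAAT, the Fasn window holds 3 CCAAT matches of which a pair overlap as CCAATTGG, and the Elovl6 window holds none of the motifs searched. In the 32851 mouse promoters of the same table, 35.7% held a GC box and 37.4% held a CCAAT box. The E-box core CACGTG and the sterol response element, spelled TCACNCCAC, were searched on both strands and stood in none of the 9 promoters of the 6 genes that the table lists, against 7.15% and 1.24% of all promoters. The table used here has no entry for Scd1 or Scd2.

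Acly (ENSMUSG00000020917) dominated the 8 genes and was a beta cell transcript by level. CPM is taken over all UMIs of a type, hormone transcripts included. Insulin made up 52.9% of UMIs in HFD and 52.1% in chow beta cells, but 2.42% in HFD and 2.02% in chow endothelial cells. The PP marker list summed to 509008 CPM in HFD and 530588 CPM in chow PP cells. The alpha marker list summed to 258194 CPM in HFD and 230790 CPM in chow alpha cells. In delta cells the delta list summed to 75106 CPM in HFD and 95472 CPM in chow. The PP list summed there to 152064 CPM in HFD and 148855 CPM in chow. With hormone genes left out of the total, beta and PP levels would stand higher beside alpha, delta and endothelial ones. Orders of types below are given on this scale alone. Beta cells held 962 CPM (95% Poisson interval 954 to 971, from 50829 UMIs) in HFD and 770 CPM (764 to 777, from 55074 UMIs) in chow. Delta cells came next with 370 CPM in HFD and 372 CPM in chow, then alpha cells with 248 CPM in HFD and 294 CPM in chow. The beta level was therefore 2.6 times that of delta cells in HFD and 2.07 times that in chow. PP cells held 127 CPM in HFD and 137 CPM in chow, and endothelial cells 129 CPM in HFD and 106 CPM in chow, with intervals of these types that overlapped in each library. Acly made up 88.9% of the UMIs of all 8 genes in HFD beta cells and 85.6% in chow beta cells, but 52.4% in HFD and 46.4% in chow endothelial cells.

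Me1 (ENSMUSG00000032418), the NADPH-forming malic enzyme, had the opposite ends of the order on this scale of all UMIs. It was highest in endothelial cells, at 35.9 CPM in HFD and 40.2 CPM in chow. Beta cells were lowest, at 13.3 CPM in HFD and 11.4 CPM in chow, with the beta interval below that of the next type in both libraries. Alpha cells held 21.8 CPM in HFD and 22.4 CPM in chow, delta cells 22.9 CPM in HFD and 23.7 CPM in chow, and PP cells 31.0 CPM in HFD and 21.2 CPM in chow. Across the 10 sums of 5 types in 2 libraries, log2(CPM + 1) of Me1 and Acly had a Pearson r of −0.89, a description over sums of which those from 1 library share it. The hormone share of the UMIs of a type enters the CPM of both genes. Among barcodes that met no rule, those with most markers of duct cells reached 121 CPM of Me1 in HFD (25 UMIs in 15 barcodes) and 123 CPM in chow (14 UMIs in 9 barcodes).

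The 2 enzymes that build palmitate were low next to Acly. On the scale of all UMIs, Fasn (ENSMUSG00000025153) was highest in alpha cells, the glucagon-secreting cells, at 32.8 CPM in HFD (149 UMIs) and 35.9 CPM in chow (242 UMIs). Beta cells followed with 22.6 CPM in HFD and 17.3 CPM in chow, with intervals that did not reach the alpha interval in either library. Delta cells held 12.3 CPM in HFD and 14.9 CPM in chow, PP cells 13.7 CPM in HFD and 5.97 CPM in chow, and endothelial cells 6.44 CPM in HFD and 7.90 CPM in chow. Acaca (ENSMUSG00000020532) held 10.7 CPM in HFD and 8.94 CPM in chow beta cells, 10.1 CPM in HFD and 13.0 CPM in chow alpha cells, and 7.40 CPM in HFD and 10.8 CPM in chow delta cells. PP cells held 12.1 CPM in HFD and 5.31 CPM in chow, and endothelial cells 4.60 CPM in HFD and 7.18 CPM in chow. No neighbours in the order of the Acaca levels stood apart beyond counting error. On this scale of all UMIs, types further apart in the order did in chow. There the alpha interval (10.5 to 16.1) lay above those of beta cells (8.26 to 9.66) and PP cells (3.03 to 8.62).

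Of the desaturases, Scd2 (ENSMUSG00000025203), known from mouse brain and from early life, outweighed Scd1 (ENSMUSG00000037071), the main form of adult liver and fat, which was barely detected. Scd2 UMIs outnumbered those of Scd1 65.0 times in HFD and 53.2 times in chow beta cells. Scd2 was alike in alpha cells (49.8 CPM in HFD, 61.5 CPM in chow), delta cells (46.8 CPM in HFD, 56.8 CPM in chow) and beta cells (44.3 CPM in HFD, 58.0 CPM in chow), with overlapping neighbours. This likeness is on the scale of all UMIs, hormone transcripts included. Endothelial cells held 32.2 CPM in HFD and 38.8 CPM in chow. On this scale of all UMIs, PP cells stood apart below them at 9.66 CPM in HFD and 22.2 CPM in chow. Scd1 reached at most 1.32 CPM in any HFD type and 2.22 CPM in any chow type, both in alpha cells. In HFD PP cells Scd1 had 0 UMIs in 2485191, with an upper interval bound of 1.48 CPM. The highest Scd1 levels lay in barcodes outside the 5 types that carried most markers of mesenchymal cells, at 32.2 CPM in HFD (9 UMIs in 22 barcodes) and 41.4 CPM in chow (8 UMIs in 15 barcodes).

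Elovl6 (ENSMUSG00000041220) had similar levels in beta cells (13.2 CPM in HFD, 13.7 CPM in chow), delta cells (12.3 CPM in HFD, 13.2 CPM in chow) and alpha cells (11.2 CPM in HFD, 11.0 CPM in chow). This likeness too is on the scale of all UMIs, hormone transcripts included. PP cells held 6.04 CPM in HFD and 4.65 CPM in chow, and endothelial cells 8.28 CPM in HFD (9 UMIs) and 2.87 CPM in chow (4 UMIs). Srebf1 (ENSMUSG00000020538) was highest in endothelial cells on the scale of all UMIs, at 28.5 CPM in HFD and 23.0 CPM in chow. Beta cells held 15.4 CPM in HFD and 19.1 CPM in chow, so the endothelial interval stood above that of beta cells in HFD but overlapped it in chow. PP cells had the lowest Srebf1, 5.63 CPM in HFD and 10.3 CPM in chow. The counts do not separate the transcripts that Srebf1 makes from its alternative starts.

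**Figure D1:**
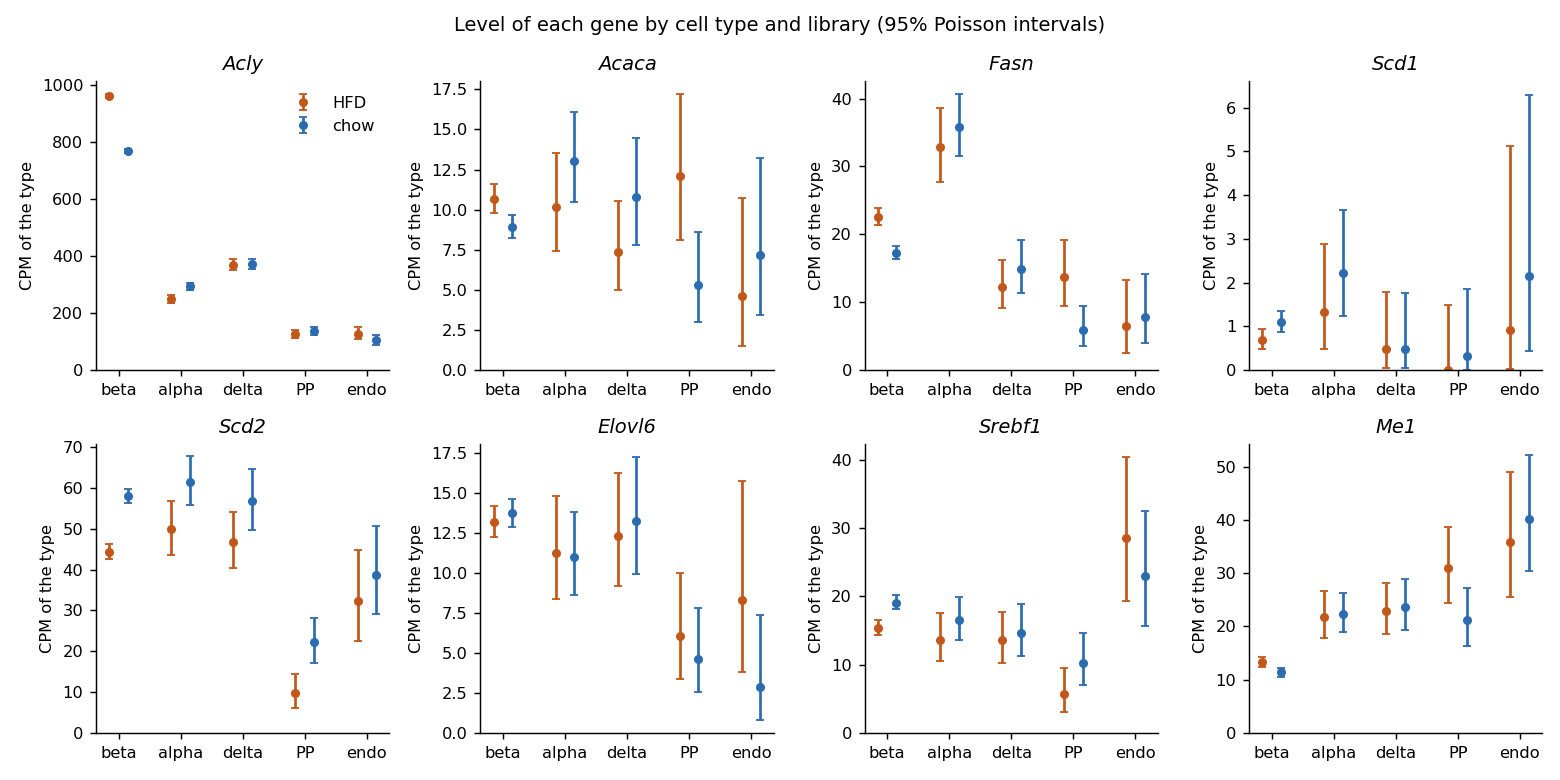
Level of each of the 8 genes in CPM (y axis, linear and scaled per gene) by cell type (x axis) in the HFD library (orange) and the chow library (blue); points are sums over all cells of a type and bars are 95% Poisson intervals. Acly stands far above the rest in beta cells, at 962 CPM in HFD and 770 CPM in chow. On this scale of all UMIs, hormone transcripts included, Fasn peaks in alpha cells and Me1 and Srebf1 peak in endothelial cells. Scd2 is lowest in PP cells on the same scale.

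RNA set free from beta cells can enter any droplet, and insulin transcripts in the other types measure it. Insulin made up between 1.93% and 3.03% of UMIs in the other HFD types and between 2.02% and 3.26% in the other chow types, against 52.9% in HFD and 52.1% in chow beta cells. At the insulin level, beta cell RNA would account for 35.1 CPM of Acly in HFD and 37.7 CPM in chow alpha cells, and for 37.7 CPM in HFD and 42.9 CPM in chow PP cells. The measured Acly of each type lay above these values, at 248 CPM in HFD and 294 CPM in chow alpha cells and at 127 CPM in HFD and 137 CPM in chow PP cells. For Scd2 in PP cells the corresponding value was 1.74 CPM in HFD and 3.23 CPM in chow.

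At a common depth of 4000 UMIs per cell, Acly was found in nearly every beta cell and was spread over a wide range. A UMI of Acly was present in 94.4% of HFD beta cells (exact binomial 95% interval 93.5 to 95.2) and in 93.1% of chow beta cells (92.3 to 93.8), against 99.1% in HFD and 99.4% in chow before thinning. The median was 4 UMIs in HFD and 3 UMIs in chow beta cells, the mean 4.13 ± 2.75 in HFD and 3.28 ± 2.22 in chow (SD over 3100 HFD and 4550 chow cells, which are not replicates). The highest beta cell held 19 UMIs in HFD and 15 UMIs in chow, and 174 HFD and 316 chow beta cells held 0. Delta cells had a UMI in 73.5% of HFD and 73.4% of chow cells, and alpha cells in 59.7% of HFD and 65.4% of chow cells. In PP cells the share was 33.1% in HFD and 36.5% in chow, and in endothelial cells 38.9% in HFD and 37.7% in chow. In PP cells 1 HFD barcode held 32 of the 315 Acly UMIs of its type, and 1 chow barcode held 18 of 412.

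**Figure D2:**
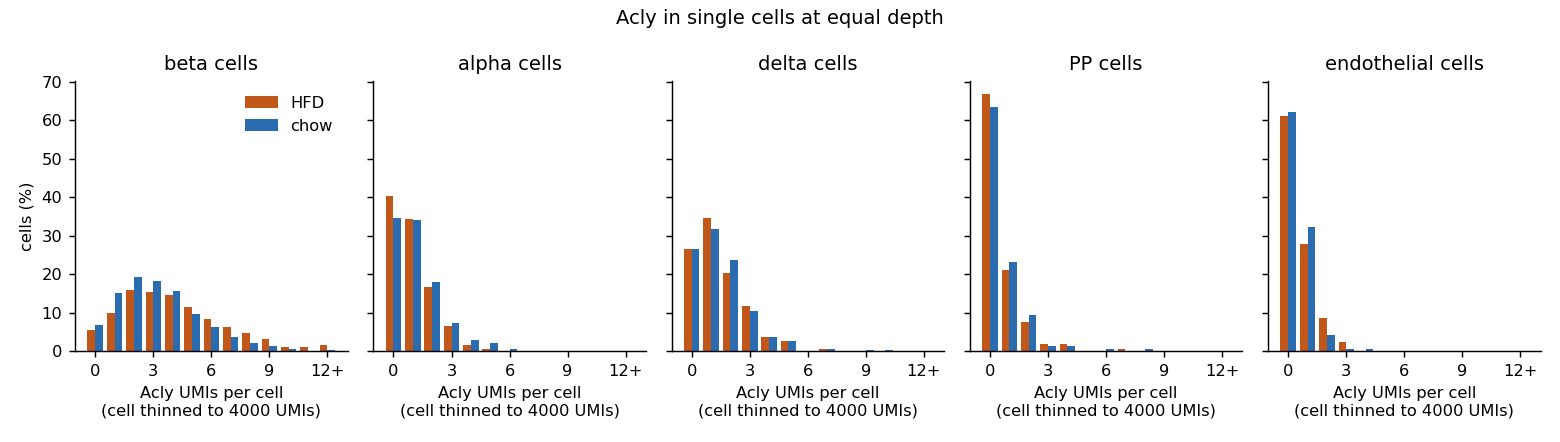
Share of cells in percent (y axis) by the number of Acly UMIs per cell after thinning each cell to 4000 UMIs (x axis, with 12 or more pooled), in the HFD library (orange) and the chow library (blue) for each type. Beta cells peak at a few UMIs, with a median of 4 in HFD and 3 in chow, while PP and endothelial cells peak at 0.

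The other genes were found in few cells at that depth, as their levels require. In beta cells a UMI of Scd2 was present in 16.5% of HFD and 20.5% of chow cells, of Fasn in 8.29% of HFD and 7.03% of chow cells, and of Srebf1 in 6.10% of HFD and 7.45% of chow cells. Scd1 was present in 0.323% of HFD and 0.505% of chow beta cells. Scd2 was present in 3.75% of HFD and 8.87% of chow PP cells, at a median depth near that of beta cells. Of the 28 pairs of the 8 genes, 22 had at least 5 beta cells expected to hold both if the genes were independent. The observed number over that expectation was above 1 in 16 pairs and below it in 6 in HFD, from 0.304 to 1.38, and above 1 in 14 pairs and below it in 8 in chow, where the lowest was 0.766. The lowest of both libraries was Elovl6 with Me1 in HFD (3 cells, 9.85 expected), a pair found in 11 chow cells with 12.3 expected, and the highest of both was Srebf1 with Me1 in chow (24 cells, 16.0 expected), found in 9 HFD cells with 11.2 expected. Scd2 and Fasn met in 42 HFD cells, with 42.4 expected, and in 80 chow cells, with 65.7 expected. Acly was present in 94.4% of HFD and 93.1% of chow beta cells, so pairs with it could hardly rise above 1. They lay between 1.01 and 1.06 in HFD and between 0.987 and 1.03 in chow. The same counts over other gene pairs were not taken, so the numbers above and below 1 are a description alone.

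In beta cells, Acly and Fasn were slightly higher in HFD, Scd1, Scd2, Srebf1 and Elovl6 were lower, and Acaca and Me1 lay near the middle of all genes. Since the median gene of HFD beta cells stood 0.20 above that of chow on the log2 scale of CPM, each ratio is given relative to the median of all genes with a summed count of at least 50 in the type. Of the 8 genes, 0 were at least 1.5-fold higher in HFD and 2 were at least 1.5-fold lower, where 4.28% and 8.94% of the 12382 genes tested in beta cells were, 13.2% in either direction. The median relative log2 ratio over the 8 genes was −0.12, beside 0 for all genes by construction.

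Acly was 1.09-fold higher in HFD beta cells, with a relative log2 ratio of 0.12 (95% counting interval 0.10 to 0.14), above 66.1% of all genes. Fasn was 1.14-fold higher at 0.19 (0.07 to 0.30), above 74.3% of genes. For Acaca the ratio was 0.06 (−0.11 to 0.22) and for Me1 0.02 (−0.13 to 0.17), both with intervals across 0, and Acaca was below 0 when cells were thinned to equal depth. Without the subtraction of the all-gene median, the Acly log2 ratio was 0.32 and that of Fasn 0.39.

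Scd2 was the plainest of the lower genes, with 2340 UMIs in HFD and 4146 UMIs in chow beta cells. Its relative log2 ratio was −0.59 (−0.66 to −0.52), a fold of 0.664, below which lay 8.83% of genes. Scd1 had −0.87 (−1.49 to −0.29), but from 36 UMIs in HFD and 78 UMIs in chow. Srebf1, the transcription factor, had 812 UMIs in HFD and 1365 UMIs in chow and a ratio of −0.51 (−0.64 to −0.39), just short of 1.5-fold, as Scd2 was just past it. Elovl6 had −0.26 (−0.40 to −0.12). Scd1, Scd2, Srebf1 and Elovl6 were below 0, and Acly and Fasn above it, under each of 13 alternative settings. At its lowest among these settings the Fasn ratio was 0.03, which lay under its counting interval given above. On the scale of CPM with no median subtracted, the Scd2 ratio was −0.39 and that of Elovl6 −0.06.

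**Figure D3:**
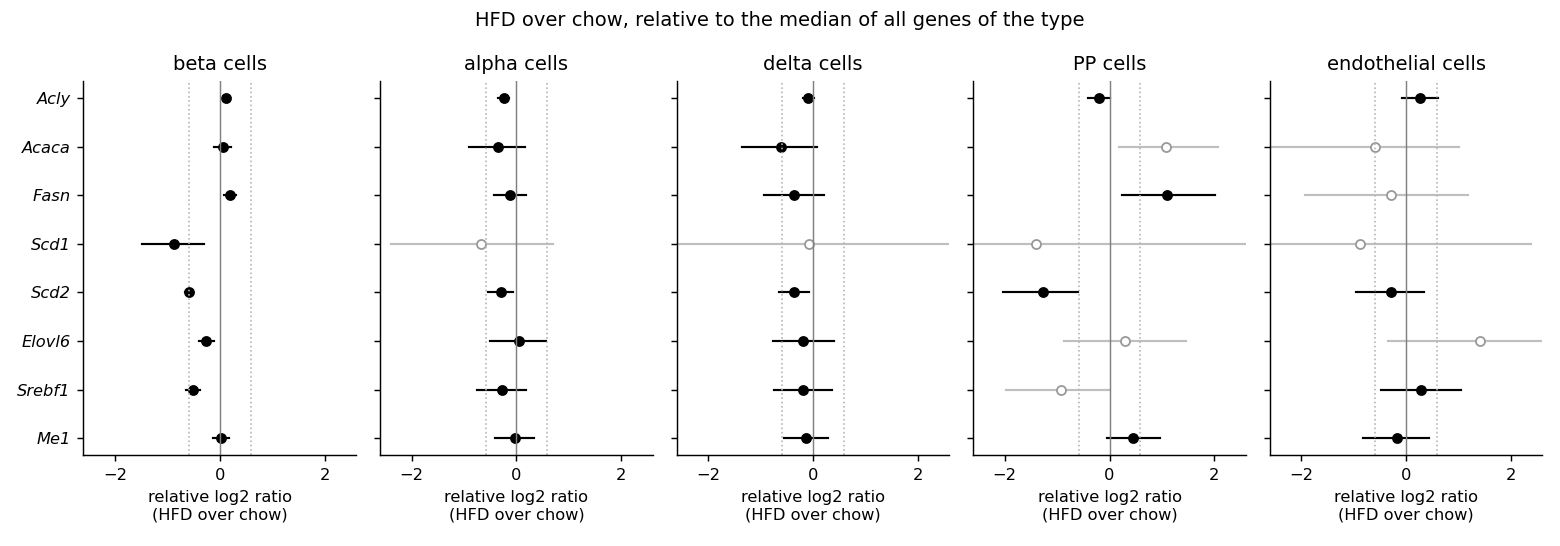
Relative log2 ratio of HFD over chow (x axis) for each of the 8 genes (y axis) in each cell type, with 95% counting intervals cut at the axis limits; dotted lines mark 1.5-fold and open grey symbols mark genes with under 50 UMIs over both libraries. In beta cells Scd1 (−0.87) and Scd2 (−0.59) lie past the lower line, and in PP cells Fasn (1.09) lies past the upper line and Scd2 (−1.27) past the lower one.

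HFD and chow beta cells differ in depth and in the spread of their insulin share. The median share was 52.3% in HFD and 52.5% in chow. At least 60% insulin was found in 17.7% of HFD and 11.9% of chow beta cells. The ratios were therefore also taken within 4 groups of UMI depth and within 3 ranges of insulin share. The depth groups were divided at 10262, 15559 and 20810 UMIs so that each held as many beta cells of both libraries together. In the deepest group lay 30.6% of HFD and 21.2% of chow beta cells. Acly was above the all-gene median in 7 of 7 strata, from 0.03 to 0.21, with 6 intervals above 0 and the lowest value in cells with at least 60% insulin. Fasn was above it in 7 of 7, from 0.13 to 0.34, but with only 2 intervals above 0. Scd2 was below it in 7 of 7, from −0.67 to −0.32, with every interval below 0, and Srebf1 in 7 of 7, from −0.57 to −0.13, with 6 intervals below 0. Elovl6 was below it in 7 of 7, with 4 intervals below 0, and Scd1 in 7 of 7, with 2 intervals below 0. Acaca and Me1 were each above the median in 4 strata and below it in 3. The strata reuse the same beta cells and the same 2 libraries, so they are not replicates.

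**Figure D4:**
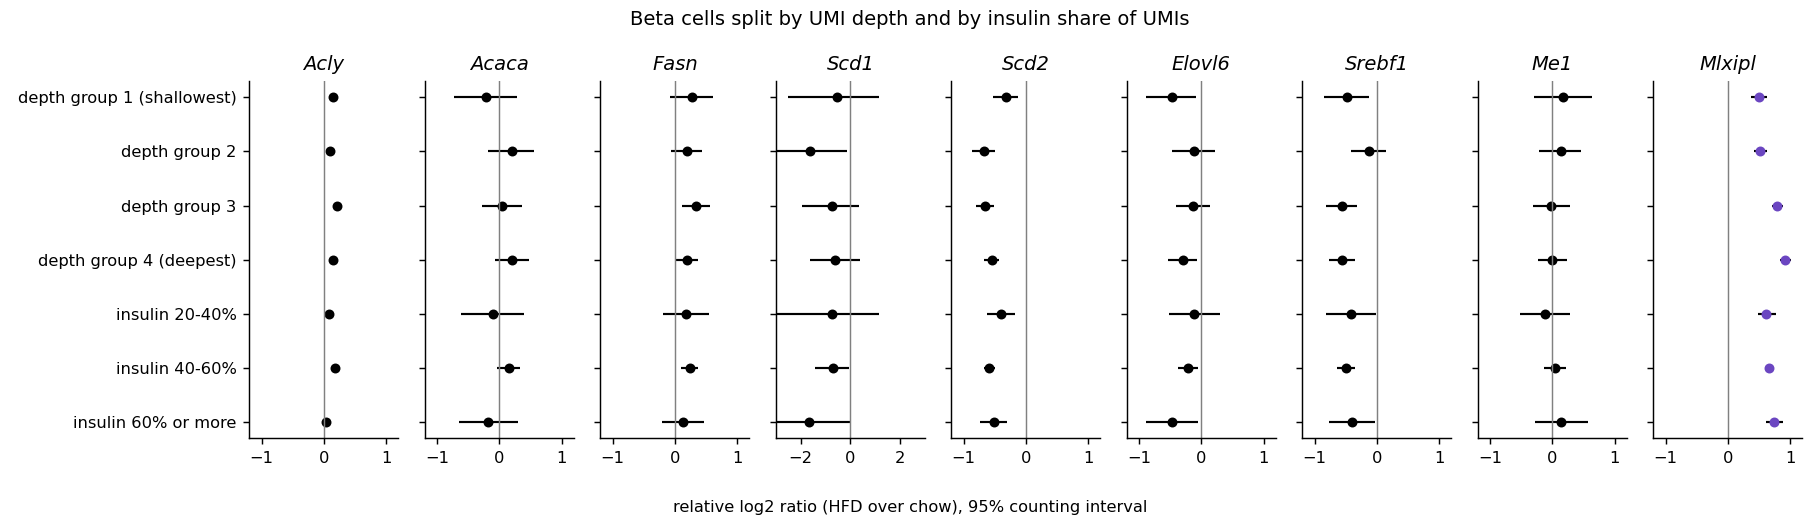
Relative log2 ratio of HFD over chow (x axis, wider for Scd1) with 95% counting intervals for the 8 genes and for Mlxipl (purple) in beta cells, by UMI depth and by insulin share of UMIs (y axis). Intervals of Scd1 are cut at the axis limits. Scd2 lies below 0 and Mlxipl above 0 in 7 of 7 strata, while Acaca and Me1 fall on both sides.

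Some markers of other cell types differed between HFD and chow beta cells. All 5 acinar markers were above 0 and summed to 4.07 CPM in HFD and 15.2 CPM in chow, the 4 ductal markers were above 0 and summed to 142 CPM in HFD and 222 CPM in chow, and 5 of 6 mesenchymal markers were above 0 (Pdgfra at 0) and summed to 6.21 CPM in HFD and 0.895 CPM in chow. The ductal sum was not particular to beta cells. It was 165 CPM in HFD and 194 CPM in chow PP cells, and in the latter Krt19, Sox9 and Cftr were at 0. Barcodes that met no rule had 234 CPM in HFD and 245 CPM in chow. The part of these markers in the ratios was not tested. For Scd1 the mesenchymal barcodes, where it was highest, had 32.2 CPM in HFD and 41.4 CPM in chow.

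In alpha cells 7 of the 8 genes passed the minimum count, 6 lay below the all-gene median, and 0 were 1.5-fold higher and 0 were 1.5-fold lower, where 4.52% and 4.91% of 9122 genes were, 9.43% in either direction. The median was −0.24. Acly was lower in HFD alpha cells, with 1127 UMIs in HFD and 1987 UMIs in chow and a ratio of −0.24 (−0.35 to −0.14), on the other side of 0 from beta cells. Scd2 had −0.30 (−0.54 to −0.06), the same side as in beta cells. The intervals of Acaca (−0.35), Fasn (−0.12), Srebf1 (−0.27), Elovl6 (0.04) and Me1 (−0.03) crossed 0, and Scd1 had 6 UMIs in HFD and 15 UMIs in chow.

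In delta cells, which secrete somatostatin, all 7 genes that passed the minimum lay below the all-gene median, with a median of −0.20. Scd2 had −0.36 (−0.64 to −0.08), and the other intervals crossed 0. Acaca, with 30 UMIs in HFD and 44 UMIs in chow, had −0.62 (−1.34 to 0.08), the only gene of the 7 past 1.5-fold in either direction. Of 8842 genes tested, 4.8% were that much higher and 2.43% that much lower in HFD, 7.23% in either direction. Acly differed little, at −0.09 (−0.19 to 0.01). When the cells were thinned, Fasn, Elovl6 and Me1 were no longer below 0.

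In PP cells only 4 of the 8 genes passed the minimum. Fasn was higher in HFD, with 34 UMIs in HFD and 18 UMIs in chow and a ratio of 1.09 (0.24 to 2.02), above 98.9% of genes. Scd2 was lower, with 24 UMIs in HFD and 67 UMIs in chow and a ratio of −1.27 (−2.03 to −0.60), below which lay 0.273% of genes. So 1 gene was past 1.5-fold higher and 1 past it lower, where 8.18% and 4.97% of 5854 genes were, 13.2% in either direction. Acly had −0.20 (−0.41 to 0.02) and Me1 0.45 (−0.04 to 0.96), and the median was 0.13. Under the minimum, Acaca had 30 UMIs in HFD and 16 UMIs in chow, and Srebf1 had 14 UMIs in HFD and 31 UMIs in chow.

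In endothelial cells 4 of the 8 genes passed the minimum, with a median of 0.04, and 0 were past 1.5-fold, where 6.51% of 5792 genes were that much higher and 4.44% that much lower, 10.9% in either direction. Acly had 0.26 (−0.08 to 0.61), Srebf1 0.29 (−0.47 to 1.05), Me1 −0.18 (−0.82 to 0.43) and Scd2 −0.28 (−0.95 to 0.35). Scd2 was thus below the all-gene median in each of the 5 types, with the interval below 0 in beta, alpha, delta and PP cells. The 5 types come from the same 2 libraries and are not independent of each other.

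The genes around the 8 were described with lists of the steps that feed, extend, control and use fatty acid synthesis. Among genes that supply acetyl-CoA and NADPH, 13 of 14 were tested in beta cells, 6 lay above and 7 below the all-gene median, and the list median was −0.01. Mdh1, the cytosolic malate dehydrogenase that works beside Acly and Me1, was the most abundant, at 94.9 CPM in HFD and 139 CPM in chow, and its ratio was −0.75 (−0.80 to −0.70). Pgls, an enzyme of the NADPH-forming pentose phosphate pathway, held 69.2 CPM in HFD and 94.5 CPM in chow, with −0.65 (−0.71 to −0.59). These were the 2 of the 13 past 1.5-fold lower, and 0 were past it higher, where 8.94% and 4.28% of all beta cell genes were.

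Among the other genes of elongation and desaturation, 13 of 18 were tested, 4 above and 9 below, with a median of −0.03. Tecr, which carries out the last reduction of each elongation cycle, held 40.8 CPM in HFD and 76.6 CPM in chow, with −1.11 (−1.19 to −1.04). Hacd2, the dehydratase of that cycle, had −0.81 (−1.02 to −0.60), and the desaturase Scd3 had −0.68 (−1.28 to −0.12) from 40 UMIs in HFD and 76 UMIs in chow. Elovl5, an elongase of polyunsaturated chains, held 46.4 CPM in HFD and 40.8 CPM in chow and had −0.02 (−0.10 to 0.06). So 3 of the 13 were past 1.5-fold lower and 0 past it higher, where 8.94% and 4.28% of all beta cell genes were. Scd1, Scd2 and Scd3 are close paralogs, and how the authors' counting treated reads that match more than 1 of them was not examined.

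Of the genes listed for control of lipogenesis, 17 of 18 were tested, 9 above and 8 below, with a median of 0.02. Mlxipl encodes ChREBP, the glucose-responsive factor that drives lipogenic genes in liver beside SREBP-1. It held 154 CPM in HFD and 85.2 CPM in chow beta cells, with a ratio of 0.65 (0.60 to 0.70), opposite in sign to Srebf1, and it was above the all-gene median in 7 of 7 strata, from 0.50 to 0.93. Mid1, which the list holds though it is a ubiquitin ligase of microtubules, was also past 1.5-fold higher, with 0.80 (0.49 to 1.11). Thrsp, a lipogenic protein of liver and fat, was the 1 gene of the 17 past 1.5-fold lower, with −0.90 (−1.61 to −0.25) from 28 UMIs in HFD and 62 UMIs in chow. Insig1, which holds SREBP in the endoplasmic reticulum, held 46.2 CPM in HFD and 41.3 CPM in chow and had −0.04 (−0.12 to 0.04).

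All 19 genes of fatty acid activation and glyceride synthesis were tested, 12 above and 7 below, with a median of 0.14. The 2 past 1.5-fold higher were Dgat2, which forms triglyceride, with 0.95 (0.44 to 1.49) from 84 UMIs in HFD and 51 UMIs in chow, and Agpat4, an acyltransferase of phospholipid synthesis, with 0.79 (0.37 to 1.23). None was past 1.5-fold lower. Agpat3 and Acsl5, the most abundant of the list in chow, had −0.28 (−0.36 to −0.19) and −0.18 (−0.29 to −0.06).

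**Figure D5:**
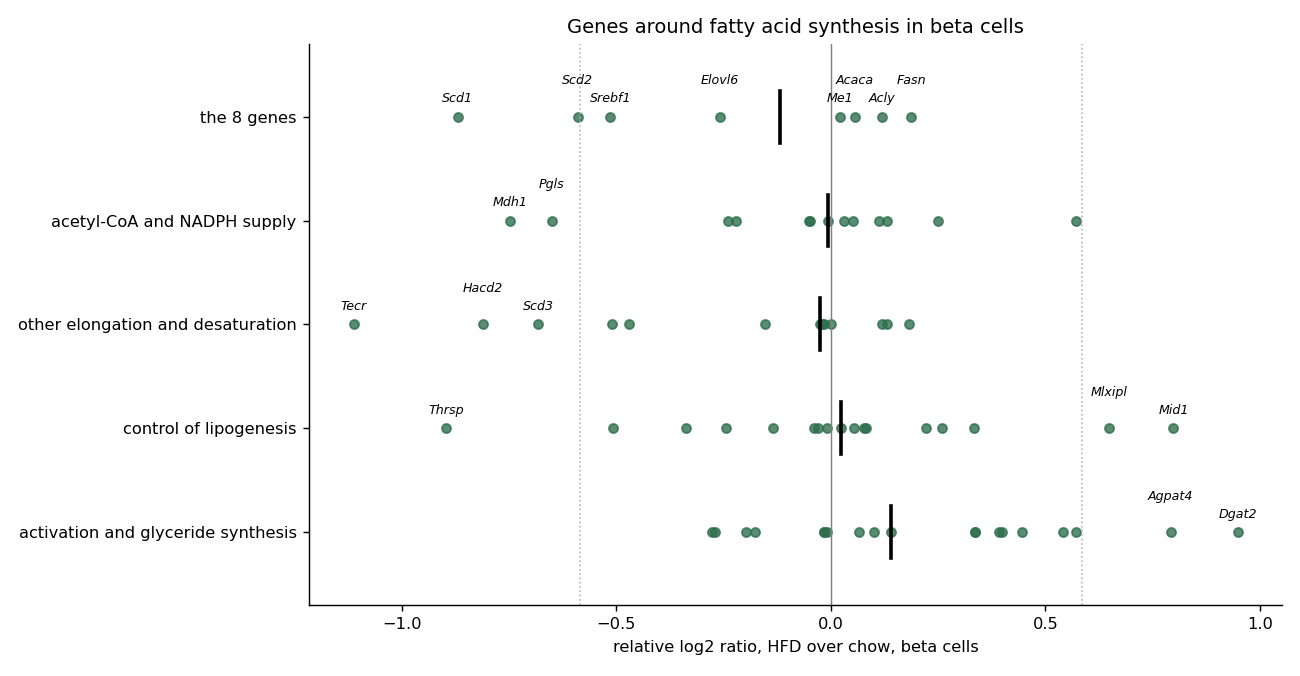
Relative log2 ratio of HFD over chow in beta cells (x axis) for each gene tested (points) of the 8 genes and of 4 lists around them (y axis); bars are list medians, dotted lines mark 1.5-fold, and names are given for the 8 genes and for list genes past 1.5-fold. Tecr (−1.11), Scd1 (−0.87) and Mdh1 (−0.75) lie on the low side, and Mlxipl (0.65) and Dgat2 (0.95) on the high side.

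Over the 4 lists together, 10 of 62 tested genes were past 1.5-fold in either direction in beta cells (16.1%, beside 13.2% of all genes), 6 of 51 in alpha cells (11.8%, beside 9.43%), 2 of 49 in delta cells (4.08%, beside 7.23%), 8 of 34 in PP cells (23.5%, beside 13.2%) and 5 of 26 in endothelial cells (19.2%, beside 10.9%). Mlxipl was again higher in HFD in delta cells (95.2 CPM in HFD, 59.7 CPM in chow, ratio 0.59) and in PP cells (32.2 CPM in HFD, 19.2 CPM in chow, ratio 0.65), and had 0.24 (−0.26 to 0.73) in alpha cells. Mid1 had 1.95 (1.24 to 2.75) in alpha cells, from 58 UMIs in HFD and 22 UMIs in chow. In alpha cells Lpin2, a phosphatidate phosphatase, had 0.62, while Pcx, the pyruvate carboxylase, had −0.93, Agpat2 −0.79 and Elovl1 −0.60. Hacd1 had −0.61 there, with an interval across 0 (−1.35 to 0.06). In delta cells Agpat1 had 0.92. In PP cells Agpat4 had 1.42, Lpin2 1.10 and Hsd17b12 0.73, while Elovl1 had −0.85 and Pgd −0.80. Agpat2 had −0.70 there, with an interval across 0 (−1.50 to 0.03). In endothelial cells Plin2, which coats lipid droplets, held 235 CPM in HFD and 139 CPM in chow, with 0.74 (0.46 to 1.01). Mbtps1, the protease that activates SREBP, had 1.11 there, Acsl4 0.91 and Fads3 −0.81. G6pdx had 0.71, with an interval across 0 (−0.01 to 1.45).

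To name genes distributed like each of the 8, Pearson r of log2(CPM + 1) was taken over the same 10 sums against 7519 or 7520 genes with at least 20 CPM in 1 of them. Acly was nearest to Elp3 (r = 0.98), Cdhr1 (0.97) and Ret (0.96), of which Ret held 33.0 CPM in HFD and 23.3 CPM in chow beta cells and at most 10.3 CPM in any other type. Fasn was nearest to Neo1 (0.95), Syt11 (0.94) and Zfp651 (0.94), and Acaca to Neo1 (0.86), Fasn (0.84) and Adgrg1 (0.82). Scd1 was nearest to Rangap1 (0.91), Noct (0.90) and Tomm40l (0.88), though from few UMIs, and Scd2 to Usp50 (0.87), Lrp8 (0.86) and Usp22 (0.85). Elovl6 was nearest to Fam20b (0.95), Braf (0.94) and Cyld (0.94), and Srebf1 to Gosr2, Nek9 and Ero1l (0.95 each). Me1 was nearest to Klf6 (0.97), Tex30 (0.96) and Rnf138 (0.95), of which Klf6 held 172 CPM in HFD and 167 CPM in chow endothelial cells, and 83.1 CPM in HFD and 53.6 CPM in chow delta cells. These likenesses are descriptions over sums that share libraries and depth.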

How the data were processed

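The values deposited by the authors are raw UMI counts, whole numbers for each barcode and gene. The submitters' processing notes name Cell Ranger 2.1.0. Build, annotation and the way cells were called are not stated there; doublets under 5% are stated in the labels. Barcodes with at least 500 genes and at most 10% mitochondrial UMIs were kept (4394 of 4539 in HFD, 6387 of 6509 in chow). No doublet caller was run: barcodes that met 2 type rules stayed in the first type, and leaving them out was an alternative. Counts were summed per type and library and scaled to CPM. Log2 ratios took 0.5 added counts, minus the median of genes with a summed count of at least 50. Intervals are exact Poisson, Clopper-Pearson or conditional binomial, at 95%. Thinning drew 4000 UMIs per cell with a fixed seed and left out 24 chow beta, 16 alpha, 9 delta and 3 endothelial cells. The ratio code was tested on simulated data. Python (numpy 2.4.6, scipy 1.17.1, pandas 2.3.3) and edgeR 4.0.16, for TMM factors alone, were used.

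All 8 genes are shown for each type in the figures of levels and ratios, and the text does not give every value. Of each list, genes past 1.5-fold in beta cells and the 2 most abundant in chow beta cells are named, and in other types up to 2 past 1.5-fold in each direction. The genes and lists were chosen with earlier results of these data known. Co-detection used beta cells thinned to 4000 UMIs. Promoters were matched by symbol for 6 of the 8 genes in a RefSeq table of GRCm38.p6, which need not be the build of the counts.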

Additional observations from a re-analysis of the deposited data

Results flagged for a closer look

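Acly lay on opposite sides of the all-gene median in 2 cell types of the same libraries: its relative log2 ratio of HFD over chow was 0.12 (0.10 to 0.14) in beta cells and −0.24 (−0.35 to −0.14) in alpha cells. Both intervals cover counting error only, and the difference between the types was not tested, since each diet has 1 library. Over the 13 alternative settings the ratio ranged from 0.10 to 0.32 in beta cells and from −0.31 to −0.14 in alpha cells. Barcodes that also met a second type rule numbered 81 in HFD and 93 in chow beta cells, and 23 in HFD and 54 in chow alpha cells. The insulin share of UMIs in alpha cells was 1.93% in HFD and 2.55% in chow, at which beta cell RNA would account for 35.1 CPM of Acly in HFD and 37.7 CPM in chow alpha cells.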

How the results depend on the processing

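With 1 library per diet, neither a left-out replicate nor a batch could be examined, and rare transcripts such as Scd1 (36 UMIs in HFD and 78 UMIs in chow beta cells) rest on few counts. No paired analysis was possible because each diet has 1 library. In beta cells, the median over the 8 genes was −0.12 as reported, 0.083 for CPM with no median subtracted and 0.057 for totals without hormone genes. The count past 1.5-fold in beta cells was 2 as reported. It was 1 with no median subtracted, with TMM factors, without hormone genes, at a limit of 5% mitochondrial UMIs and with cells weighted equally, since Scd2 lies at the threshold, and 0 when cells were thinned. In alpha cells the median was −0.10 when thinned, against −0.24, and the count was 1, against 0, with no minimum count and when thinned. In delta cells the count was 0, against 1, with no median subtracted, without barcodes meeting 2 rules, with doubled type thresholds, at 5% mitochondrial UMIs and when thinned. In PP cells the median was −0.33 with doubled thresholds, against 0.13, and the count was 5 with no minimum count, 1 with doubled thresholds or 5% mitochondrial UMIs and 0 when thinned, against 2. In endothelial cells the count was 3 with no minimum count, against 0. Beyond the construction of each setting, the cause was not tested. Of the 80 levels in CPM, 57 moved past their interval without hormone genes in the total, 16 when thinned and 16 without the 5 highest cells.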

Other observations

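Beta cells thinned to 4000 UMIs were also grouped by their Mlxipl UMIs, a grouping chosen after the data were seen. In HFD beta cells, Acly stood at 991 CPM in 1616 cells with no Mlxipl UMI, 1061 CPM in 1017 cells with 1 UMI and 1116 CPM in 467 cells with more. In chow beta cells it stood at 807 CPM in 3189 cells with no Mlxipl UMI, 852 CPM in 1058 cells with 1 UMI and 846 CPM in 303 cells with more. The chow Acly interval of the cells with more (795 to 899) overlapped that of the cells with none (791 to 822). In HFD the Acly intervals of cells with 1 UMI (1030 to 1093) and with more (1069 to 1165) overlapped. With overlapping intervals in each library, Scd2 stood between 49.2 and 50.3 CPM in the same groups in HFD and at 60.1, 62.9 and 71.8 CPM in chow. These are CPM with no median subtracted, on which scale the median gene of HFD beta cells stood 0.20 higher (log2), and the highest groups pool cells with differing Mlxipl UMIs. Acaca stood at 8.51, 9.59 and 10.7 CPM in HFD and at 8.86, 11.3 and 9.90 CPM in chow over the 3 groups, with overlapping intervals. Acaca rested on at most 113 UMIs in a group and the other 5 genes on at most 252. Of these, Fasn stood at 19.8, 22.1 and 24.1 CPM in HFD and at 17.4, 19.6 and 25.6 CPM in chow. Elovl6 stood at 15.2, 13.0 and 12.3 CPM in HFD and at 15.5, 12.5 and 16.5 CPM in chow. Intervals overlapped for both genes. Acly and Mlxipl were both lowest in beta cells with at least 60% insulin. There Acly held 692 CPM in HFD and 643 CPM in chow, and Mlxipl 117 CPM in HFD and 66.1 CPM in chow. In cells with 20 to 40% insulin, Acly held 1024 CPM in HFD and 891 CPM in chow. Mlxipl held 191 CPM in HFD and 114 CPM in chow in those cells. The part of insulin share in the Mlxipl groups was not tested.

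Barcodes outside the 5 types with most markers of macrophages held 60.2 CPM of Acly in HFD (55 UMIs in 71 barcodes) and 34.1 CPM in chow (18 UMIs in 54 barcodes), and 2.19 CPM of Me1 in HFD and 3.79 CPM in chow (2 UMIs each).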
